A study of Mus musculus with 4 samples.

Results

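The genes described here encode 3 families of proteins that set how long an mRNA lasts in the cytoplasm. They were taken by gene name from the deposited table of gene levels and make up 10 of its 55267 entries: Zfp36, Zfp36l1 and Zfp36l2 of the ZFP36 family, Btg1, Btg2, Btg3, Tob1 and Tob2 of the BTG/TOB family, and Cnot7 and Cnot8, the CAF1 deadenylases. They were chosen by name after the TPM differences between BMP6 and control in these same libraries were known, so the differences between BMP6 and control given for these 10 genes are descriptions and carry no test.

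The study asked how adult mouse muscle stem cells (MuSCs) respond to bone morphogenetic protein 6 (BMP6). Muscle cells of female 9-week-old mice of the genotype C57BL/6N(Tg(Pax7-EGFP)Tajb), in which the Pax7 promoter drives a green fluorescent protein, were cultured, sorted for that reporter and cultured again. All 4 libraries came from cells that then spent 6 h in serum-free medium with 200 ng/mL BMPR-1A-Fc, a soluble receptor that captures BMPs. For the last step, 2 libraries received 100 ng/mL BMP6 for 1 h and 2 controls received the vehicle, 4 mM HCl with 0.1% BSA, for the same time, with 1 library of each group in each biological replicate. The labels call the replicates batches, and nothing in them says how many animals stood behind each, so errors and p-values measure the spread between these libraries only.

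Most mRNAs are destroyed from the tail. The CCR4-NOT complex shortens the poly(A) tail through its CAF1 and CCR4 subunits, after which the cap is removed and the body of the mRNA is digested from the 5′ end. ZFP36 proteins are zinc finger proteins that bind AU-rich elements in the 3′ untranslated region and bring CCR4-NOT to the mRNA, while BTG and TOB proteins bind CAF1 directly and bring it to the poly(A)-binding protein. In MuSCs, tristetraprolin, the product of Zfp36, is known to bind the Myod1 mRNA and to be held inactive by p38 kinase signalling once the cells are activated.

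ZFP36 mRNAs are themselves known to carry AU-rich elements. In the reference transcripts of the 10 genes (GENCODE M39), the 9-base core element TTATTTATT occurred once after the stop codon of each of the ZFP36 genes and in none of the other 7, against 8.82% of the 10725 tested entries with an annotated 3′ untranslated region. The 30-base windows around the elements are printed 5′ to 3′ on the strand of the gene, with the element in capitals, to show the part that the ZFP36 genes share and the 7 others lack. They lie in the last exon at chr7:28076375-28076404 (Zfp36, minus strand), chr12:80154940-80154969 (Zfp36l1, minus strand) and chr17:84492341-84492370 (Zfp36l2, minus strand) of GRCm39.
Zfp36: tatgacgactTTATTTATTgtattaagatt
Zfp36l1: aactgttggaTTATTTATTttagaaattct
Zfp36l2: actatttaacTTATTTATTatcttgtgaaa
The shorter forms separated the families less. TATTTAT was present in 8 of the 10 genes, with 3 copies in each ZFP36 gene and in Btg3 and none in Btg1 or Tob1, against 31.7% of entries. ATTTA was present in all 10, from 3 copies in Zfp36, Tob1 and Cnot8 to 11 in Btg1, against 72.8% of entries. These shorter words also count the copies inside the 9-base element. Annotated untranslated regions ranged from 774 bases in Zfp36 to 4166 in Btg1, with a median of 1321 over the tested entries, and a longer region has more room for a match. For Btg3 and Cnot7 the reference region was longer than the deposited transcripts, so part of it was not measured.

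Read numbers rebuilt from coverage were between 108 and 112 per library in units of 1000000. Between 13002 and 13203 entries reached a TPM of 1, the deposited level per transcript length, which sums to 1000000 in every library. The cells expressed the defining genes of the myogenic lineage in every library, with Myog between 4400 and 5472 TPM, Myod1 between 536 and 631 TPM and Pax7 between 8.29 and 11.7 TPM. Defining endothelial markers stayed at or below 0.143 TPM, immune markers at or below 1.68 TPM, Schwann cell markers at or below 0.601 TPM, and pericyte or smooth muscle markers at or below 4.93 TPM. Among fibroblast markers, Pdgfra stayed at or below 0.164 TPM while Col3a1 reached 109 TPM. Of 5 BMP target genes listed as a check of the labels, all were higher in both BMP6 libraries and 4 passed the adjusted p (0.1, limma with Benjamini-Hochberg adjustment over 13128 entries), the inhibitors of differentiation Id1, Id2 and Id3 and the inhibitory Smad7. Smad6 passed with the replicate number as a block (adjusted p = 0.00169). In bulk RNA, fewer cells that express a gene and less RNA per cell cannot be told apart.

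All 10 genes were expressed in every library. Cnot8 was the highest at a mean of 102 TPM over the 4 libraries, and Btg3 at 75.8, Cnot7 at 60.3, Btg1 at 41.9, Btg2 at 40.5, Zfp36l1 at 30.4, Tob1 at 15.6, Zfp36 at 9.48, Tob2 at 4.87 and Zfp36l2 at 3.35 TPM followed. Neighbours in this order had ranges over the 4 libraries that did not overlap, with the exception of Btg1 (37.5 to 45.6 TPM) and Btg2 (38.2 to 42.3 TPM). The family members that the list of 10 leaves out, Zfp36l3 and Btg4, were at 0 TPM in all libraries. Summed TPM was 46.2 and 38.4 after BMP6 and 47.6 and 40.9 in controls for the ZFP36 genes. It was 185 and 177 against 177 and 175 for the BTG/TOB genes and 168 and 167 against 158 and 155 for the CAF1 genes, replicate 1 first each time.

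**Figure D1:**
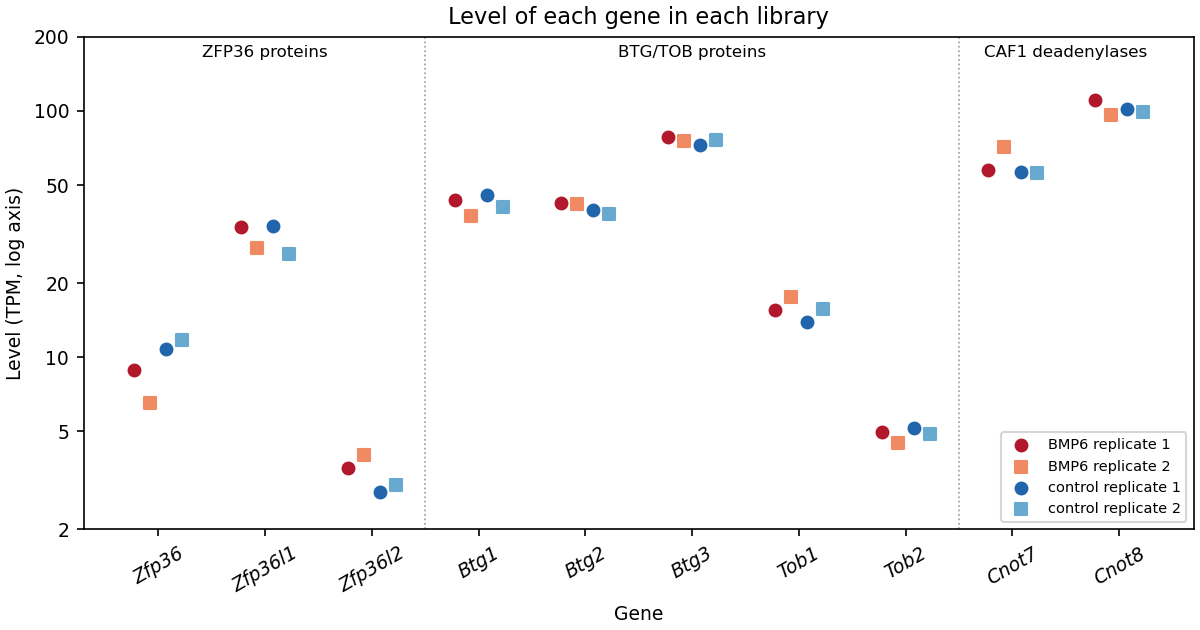
Level of each gene in TPM on a log axis, with 1 point per library, BMP6 in red and orange, control in blue, circles for replicate 1 and squares for replicate 2. Cnot8 lies highest and Zfp36l2 lowest, the points of Btg1 and Btg2 overlap, and Zfp36 shows the widest gap between the BMP6 and the control points.

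Zfp36 had the largest difference of the 10. Its level was 8.88 and 6.52 TPM in BMP6 replicates 1 and 2 and 10.7 and 11.8 TPM in control replicates 1 and 2. Both BMP6 libraries lay below both controls, and the lowest value of all was that of BMP6 replicate 2. The group means were 7.70 ± 1.67 and 11.2 ± 0.712 TPM (SD, n = 2 each), a difference of -0.51 on the log2(TPM + 1) scale (SE 0.17). Within the same-numbered replicates the difference was -0.25 in replicate 1 and -0.76 in replicate 2. In the whole table, 0.480% of tested entries had a lower log2 difference and 1.69% had one at least as large in either direction. The gene was chosen with this difference known, so these shares are descriptions and no test. Without BMP6 replicate 2 the difference was -0.31, and without BMP6 replicate 1 it was -0.70.

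Zfp36 lies on chromosome 7, from 28076209 to 28079678 on the minus strand of GRCm39 in the authors' files, with a spliced transcript of 2 exons and an unspliced one that spans the intron. Exon depth was put on the TPM scale by the same factor that turns a library's transcript coverage into TPM. Over the 1710-base last exon, which holds the AU-rich element printed above, it was 13.7 and 9.59 after BMP6 and 16.2 and 17.4 in controls, a log2 difference of -0.23 in replicate 1 and -0.79 in replicate 2. The 1080-base first exon was at 0.535 and 0.416 after BMP6 and 0.601 and 0.596 in controls. The last exon was thus 26.4 times as deep as the first. The unspliced transcript was at 0.301 and 0.481 TPM after BMP6 and at 0.604 and 0.888 TPM in controls, again with both BMP6 libraries below both controls, and made up between 3.39% and 7.56% of the gene's TPM. Both transcripts hold a stretch of the first exon, within bases 143 to 306 of the reference transcript, that matches 24 other genes over 105 to 148 bases at an identity of at least 95%, of which 7 reached 10 TPM or more and 1, Wdr1, reached 373 TPM. Reads from such genes could have been counted here, which bears most on the unspliced transcript, at under 1 TPM, and on the first exon. Gm44710, a gene on the other strand that reached 0.768 TPM, also overlaps exons of Zfp36, and the libraries were unstranded. The part of all these genes in the values was not tested.

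**Figure D2:**
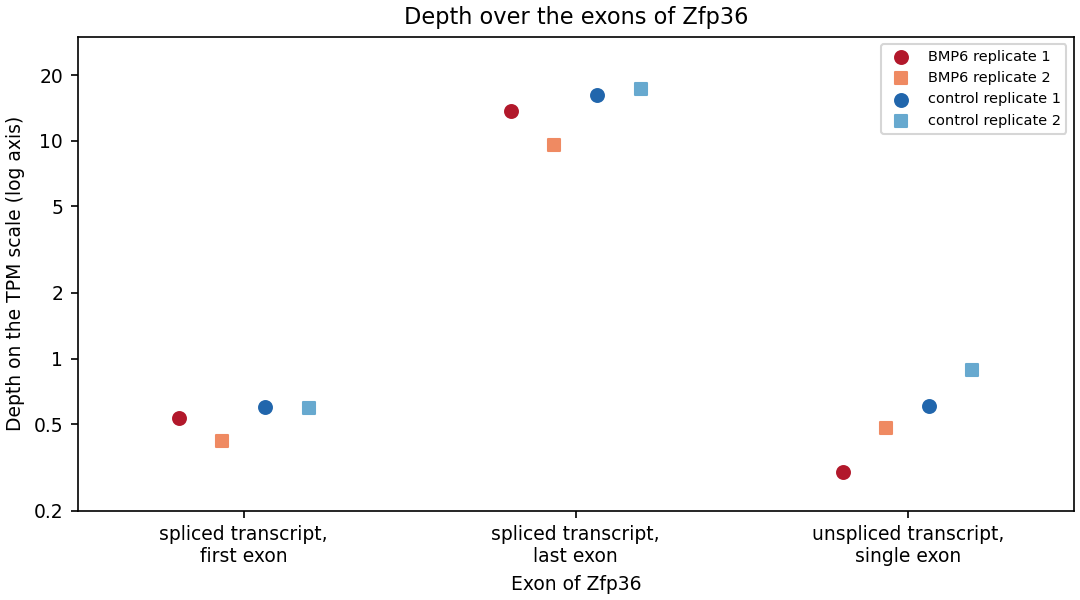
Depth over the exons of Zfp36 on the TPM scale (log axis), with 1 point per library, for the first and last exon of the spliced transcript and for the single exon of the unspliced transcript. BMP6 points (red, orange) lie below both control points (blue) in each, and the last exon of the spliced transcript is the deepest by far.

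The deposited start of Zfp36 lies 1025 bases upstream of the start that RefSeq gives. A TPM is divided by the whole transcript length, so this first exon of low depth lowers the level of Zfp36 relative to the other genes, and the last exon alone would place it at 14.2 TPM on average. The promoter in RefSeq (GRCm38.p6), 250 bases before to 50 after the RefSeq start, matched GRCm39 exactly once, at chr7:28078604-28078903 on the minus strand, wholly inside the deposited first exon. It is printed to show where transcription of the covered part is annotated to begin, with a CArG box, the motif bound by serum response factor, in capitals.
Zfp36 promoter: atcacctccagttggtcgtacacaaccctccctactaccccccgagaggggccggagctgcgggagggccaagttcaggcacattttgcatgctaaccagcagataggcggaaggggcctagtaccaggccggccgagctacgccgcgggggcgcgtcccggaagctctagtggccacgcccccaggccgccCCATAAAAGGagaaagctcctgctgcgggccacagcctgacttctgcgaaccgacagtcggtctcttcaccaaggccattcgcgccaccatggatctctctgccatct
The match starts 58 bases before the RefSeq start. Of 27025 genes with a RefSeq promoter entry, 1.81% held a CArG box on either strand in at least 1 entry, and Zfp36 was the only one of the 8 genes with a promoter entry that did. The match describes the letters and says nothing of binding.

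Zfp36l1, a paralog that binds the same elements, was the most abundant of the ZFP36 genes. It stood at 33.8 and 27.9 TPM after BMP6 and 34.0 and 26.1 TPM in controls. The libraries split by replicate and not by treatment, with both replicate 2 libraries below both replicate 1 libraries. The difference between BMP6 and control was 0.04 (SE 0.16), and between replicate 2 and replicate 1 it was -0.32 (SE 0.08). Depth came from 1 of 4 transcripts listed, the other 3 being at 0 TPM.

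Zfp36l2, the third paralog, was the lowest of the 10 genes and went the other way from Zfp36. Its values were 3.54 and 4.00 TPM after BMP6 and 2.83 and 3.03 TPM in controls. Both BMP6 libraries lay above both controls. The difference was 0.28 (SE 0.14), with 0.25 in replicate 1 and 0.31 in replicate 2. Under the other settings it kept its sign, between 0.15 with a pseudocount of 5 and 0.35 with a pseudocount of 0.1.

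Btg1 and Btg2 are close relatives that slow cell division and activate deadenylation. Btg1 was at 43.7 and 37.5 TPM after BMP6 and at 45.6 and 40.6 TPM in controls, so that the groups overlapped. The difference was -0.09 (SE 0.12), -0.06 in replicate 1 and -0.11 in replicate 2. Btg2, also a target gene of p53, was at 42.3 and 41.8 TPM after BMP6 and at 39.7 and 38.2 TPM in controls. The groups of Btg2 did not overlap, but the means of 42.0 ± 0.399 and 39.0 ± 1.06 TPM (SD, n = 2 each) lay only a factor of 1.08 apart on the log2(TPM + 1) scale. The difference was 0.11 (SE 0.09).

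Btg2 was the only gene of the 8 whose RefSeq promoter held the palindromic cAMP response element TGACGTCA, which occurs in 2.03% of all genes with a promoter entry. The element starts 166 bases before the RefSeq start, in the window chr1:134007041-134007070 on the minus strand of GRCm39, shown with the element in capitals.
Btg2 promoter window: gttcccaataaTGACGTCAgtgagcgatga
The palindrome GGCGCC, a core bound by SMAD1 and SMAD5, was in the promoters of Zfp36l1, Btg2, Btg3 and Cnot8, 4 of the 8 genes, against 13.4% of the 27025 genes with a promoter entry. A gene counts here once if any of its entries holds the motif, and the 8 genes have 12 entries, of which 2 overlapping ones of Cnot8 share a site. In Zfp36l1 the site starts 21 bases after the RefSeq start. The palindrome GTCTAGAC, a pair of SMAD boxes, was in none of the 8 and in 0.248% of all genes counted this way. TATAAA, read on the strand of the gene, was in Zfp36l1, Btg1 and Tob1 and in 9.77% of all genes. The shares are over all genes with an entry, whether or not these cells express them. All of these matches describe the letters and say nothing of binding, and nothing is read from their counts.

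Btg3, another antiproliferative member, was at 78.6 and 75.8 TPM after BMP6 and at 73.0 and 75.9 TPM in controls. The groups overlapped, and the difference was 0.05 (SE 0.09). Its level is uncertain. The processed pseudogene Gm7334 on chromosome 17 is identical to the Btg3 transcript over 756 bases, and was listed at 86.9 and 85.0 TPM after BMP6 and at 81.8 and 85.8 TPM in controls. Reads that match both cannot be told apart, and the authors' settings did not correct for reads that align to several places. Along Btg3 itself, mean depth on the TPM scale was 8.09 over the first exon, 43.7 over the second and between 90.2 and 113 over the last 3.

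Tob1 and Tob2 are larger proteins that bind the poly(A)-binding protein as well as CAF1, and Tob1 is also known to restrain BMP signalling by binding SMADs. Tob1 was at 15.5 and 17.5 TPM after BMP6 and at 13.8 and 15.7 TPM in controls. The groups overlapped because the 2 replicate 2 libraries were higher than their replicate 1 partners, while the difference within replicates was nearly the same in both, 0.16 and 0.15. Tob2 was at 4.96 and 4.47 TPM after BMP6 and at 5.14 and 4.89 TPM in controls. Its groups overlapped as well, with a difference of -0.08 (SE 0.14) and the BMP6 library lower in each replicate, by -0.04 and -0.11.

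Cnot7 and Cnot8 encode the interchangeable CAF1 nucleases of CCR4-NOT. Cnot7 was at 57.7 and 71.2 TPM after BMP6 and at 56.4 and 56.0 TPM in controls. Both BMP6 libraries were above both controls, but replicate 1 of BMP6 exceeded the nearer control only slightly, and the difference of 0.19 (SE 0.12) came mostly from replicate 2, at 0.34 against 0.03 in replicate 1. Without BMP6 replicate 2 it was 0.04, and without BMP6 replicate 1 it was 0.34. Cnot8 was at 111 and 95.8 TPM after BMP6 and at 102 and 99.0 TPM in controls, with a difference of 0.03 (SE 0.10) and BMP6 libraries on both sides of the controls.

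The levels assigned to the transcripts of Cnot7 in the authors' files varied far more than the gene. ENSMUST00000034012, with 7 exons, held 35.6% and 53.4% of the gene's TPM after BMP6 and 81.6% and 25.3% in controls. ENSMUST00000149992, with 6 exons and a longer first one, held 50.3% and 39.5% after BMP6 and 15.9% and 57.0% in controls. ENSMUST00000135269, which skips an exon of 111 bases, held 14.1% and 7.11% against 2.48% and 17.6%. The 2 control libraries were the extremes for all 3 transcripts, so that the spread within the control group exceeded the distance between groups. In the exons that these transcripts share, depth summed over them had a range of only 80.7 to 106 on the TPM scale for the longest shared exon, with log2 differences of 0.09 and 0.31 in replicates 1 and 2. ENSMUST00000149992 lacks the 215-base first exon of the other transcripts. Its depth in control replicates 1 and 2 was 12.3 and 8.02 as assigned to ENSMUST00000034012. As assigned to ENSMUST00000135269 it was 0.376 and 5.59, in the opposite order. The part of read assignment in the transcript shares was not tested.

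**Figure D3:**
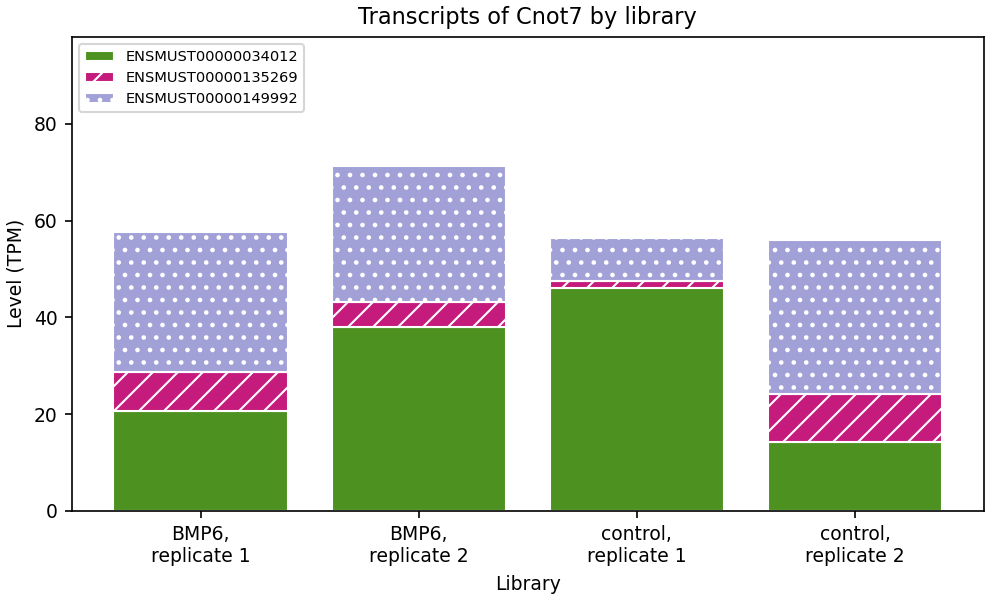
Level in TPM of the detected transcripts of Cnot7, stacked per library, so that the height of a bar is the level of the gene. The bars of the 4 libraries are between 56.0 and 71.2 TPM high, while the lowest segment ranges from 14.2 TPM in control replicate 2 to 46.0 TPM in control replicate 1.

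Cnot7 also lies opposite 2 genes on the other strand, Zdhhc2 and Vps37a, whose exons overlap it and which reached 4.98 and 19.6 TPM. The libraries were unstranded, so reads of the overlap cannot be assigned. The same holds for Btg3 and Cxadr, Zfp36l2 and Gm36279, and Tob2 and Gm49476. These opposite genes reached 1.64, 0.586 and 0.124 TPM in that order. Gm31974, opposite Btg2, had no level to compare. Cnot8 has a pseudogene, Gm18860, that is 97.8% identical over 760 bases but stayed at or below 2.72 TPM, and Btg1 has one, Gm14519, that is 98.7% identical over 312 bases and stayed at or below 0.631 TPM. The first exon of Cnot8 had a mean depth of 0.932 on the TPM scale, against 81.8 over the second exon.

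Set side by side, the BMP6 and control groups did not overlap for 4 of the 10 genes. Zfp36l2, Btg2 and Cnot7 were higher and Zfp36 was lower after BMP6, beside 16.6% of the 13128 tested entries with both BMP6 libraries above, 11.6% with both below and 28.3% in either direction. The direction was the same in both replicates for 7 genes, 4 higher and 3 lower, beside 60.6% of all tested entries, 35.0% higher and 25.7% lower. The median difference of the 10 genes was 0.05, and that of all tested entries was 0.02. None of the 10 passed an adjusted p under 0.1 in the limma fit over the whole table, in which 0.244% of entries did (0.225% of entries with a kept name when a fold change of 2 was asked for too), and 1 of them, Zfp36, had an unadjusted p under 0.05, beside 3.2% of entries. With the replicate number as a block, 0 of 10 passed the adjusted p beside 1.64% of entries, with 2 at an unadjusted p under 0.05, Zfp36 and Zfp36l2, beside 12.9%. With voom on rebuilt reads and the same block, 0 of 10 passed beside 2.11%. Nothing is read from these counts, since the genes were chosen with this comparison known.

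**Figure D4:**
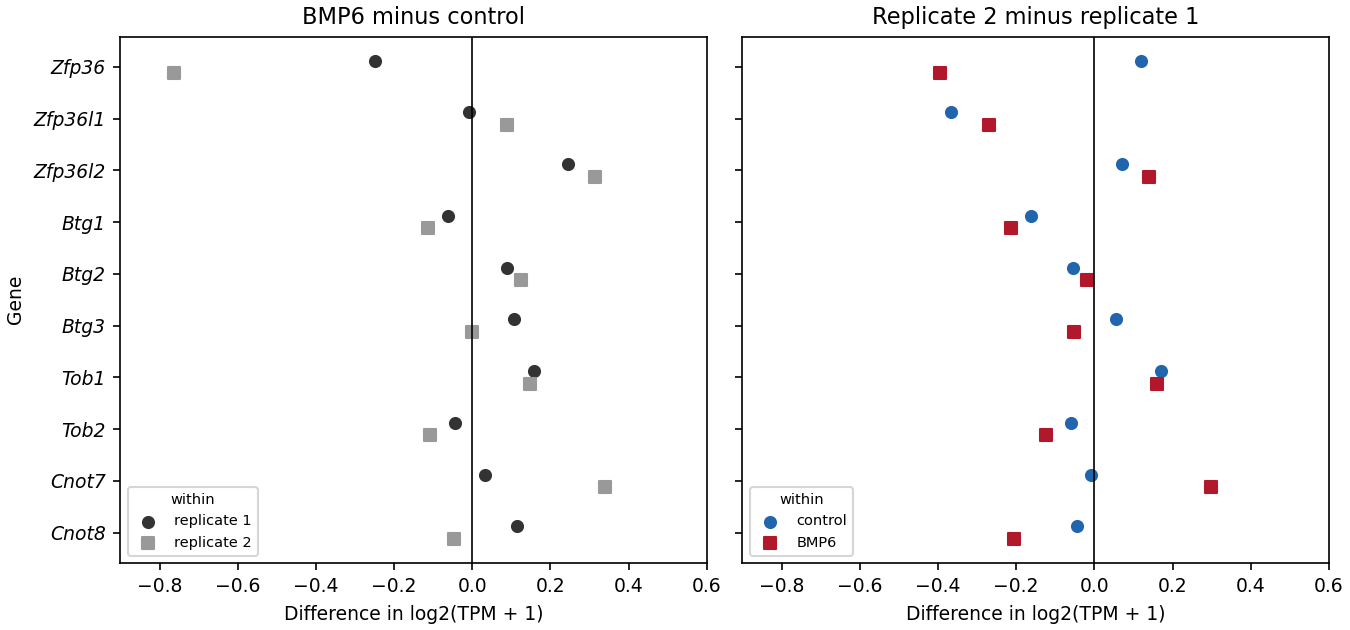
Differences in log2(TPM + 1) for each gene, between BMP6 and control within replicate 1 and replicate 2 (left) and between replicate 2 and replicate 1 within control and BMP6 (right). The points of Zfp36 lie at -0.25 and -0.76 on the left, and those of Zfp36l1 at -0.37 and -0.27 on the right.

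The difference between replicates is a measure that the choice of genes did not use. With treatment as a covariate, Zfp36l1 was lower in replicate 2 by limma (log2 difference -0.32, adjusted p = 0.0369), in both groups alike, at -0.37 in controls and -0.27 after BMP6. It was the only one of the 10 to pass, beside 19.8% of tested entries in either direction and 8.37% that were lower in replicate 2. The adjusted p of Zfp36l1 was between 0.0221 and 0.109 under 5 other settings, and exceeded 0.1 without the treatment term and without the mean-variance trend. The fit used here is the one with the replicate block, which on simulated data called too many unchanged entries for BMP6. Whether its replicate term does the same was not tested. Btg1 was also lower in replicate 2, by -0.16 in controls and -0.21 after BMP6, but did not pass (adjusted p = 0.131). All 4 fibroblast markers were lower in replicate 2 in both groups as well, with a summed level of 166 and 105 TPM in BMP6 replicates 1 and 2 and of 174 and 124 TPM in control replicates 1 and 2. Of the 5 muscle markers, Myf5 and Des were lower in replicate 2 in both groups and Myog and Pax7 higher. The part of these shifts in the difference of Zfp36l1 was not tested. For 5 of the 10 genes the absolute difference between replicates was larger than that between BMP6 and control. The share over all tested entries was not counted, and the BMP6 difference was known at the choice. Nothing is therefore read from this count. The median absolute difference between BMP6 and control was 0.097 for the 10 genes and 0.088 for all tested entries. The median absolute difference between replicates was 0.13 for the 10 genes and 0.14 for all tested entries.

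By the smallest distance between profiles of log2(TPM + 1), each centred on its own mean over the 4 libraries, the 3 entries most like Zfp36 among 10645 with a kept name were Rnu2-10, H3c8 and Sh3gl3, at distances of 0.0949, 0.123 and 0.136. Rnu2-10, named for a U2 small nuclear RNA, was at 4.23 and 3.15 TPM after BMP6 and at 5.81 and 6.12 TPM in controls, and the other two stayed at or below 1.83 TPM. For Btg2 the 3 nearest were Hmmr, Zfp68 and Katnal1, at 0.00782, 0.00785 and 0.0124. Hmmr, which encodes a spindle-associated hyaluronan receptor, was at 46.3 and 45.6 TPM after BMP6 and at 43.3 and 42.0 TPM in controls. Both sets are descriptions over 4 libraries.

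The machinery that the 10 proteins work with was expressed. All 9 other CCR4-NOT subunits were tested, 6 with a difference above 0 and 3 below, with a median of 0.09, and none passed the adjusted p in limma without or with the replicate block. At an unadjusted p under 0.05 there were 0 without the block and 1 with it, Cnot10, beside 3.2% and 12.9% of all tested entries. For this and the following lists, the median over all tested entries was 0.02. Of the 10725 entries with an annotated 3′ untranslated region, 57.1% lay above 0. The 9 subunits ranged from Cnot4, a ubiquitin ligase of the complex, at -0.06 (SE 0.16) to Cnot10, which forms a module with CNOT11, at 0.22 (SE 0.10). Cnot10 was at 39.7 and 43.4 TPM after BMP6 and at 34.4 and 36.5 TPM in controls. Among 7 other deadenylases and poly(A)-binding proteins, 5 were above 0 and 2 below, with a median of 0.09 and none past the adjusted p in either fit. At an unadjusted p under 0.05 there were 0 without the block and 1 with it, Pabpc1, beside the same 3.2% and 12.9%. The lowest difference of this list was that of the deadenylase subunit Pan2, at -0.06 (SE 0.13). The highest was that of Pabpc1, the main cytoplasmic poly(A)-binding protein, at 0.21 (SE 0.25).

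Of 11 genes of decapping and 5′ to 3′ decay, 7 were above 0 and 4 below (median 0.06). None passed without the block. Lsm14a, a scaffold of processing bodies that binds capped mRNA complexes, was at 141 and 151 TPM after BMP6 and at 116 and 121 TPM in controls, a difference of 0.30 (SE 0.06 with the block) that passed only with the replicate block in limma and in voom (adjusted p = 0.0593, between 0.0493 and 1.0 under the alternatives). Xrn1, the 5′ to 3′ exonuclease, had the highest difference of this list at 0.35 (SE 0.17) and the decapping enzyme Dcp2 the lowest at -0.18 (SE 0.16). Of 15 other RNA-binding proteins that set mRNA stability, 12 were tested, 10 above 0 and 2 below (median 0.08), and none passed in either fit. At an unadjusted p under 0.05 there were 0 without the block and 2 with it, Elavl1 and Rc3h1, beside 3.2% and 12.9% of all tested entries. Elavl1, which encodes HuR and stabilises mRNAs with AU-rich elements, was the highest at 0.29 (SE 0.16) and came close with the block (adjusted p = 0.103), and Hnrnpd, which encodes AUF1, the lowest at -0.08 (SE 0.37).

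Among mRNAs with AU-rich elements that ZFP36 proteins are known to bind, 7 of 13 were tested and 6, most of them cytokine mRNAs, lay under the filter. All 7 went the same way in both replicates, 4 higher and 3 lower (median 0.13), beside 60.6% of all tested entries. The list was chosen with earlier results of these data known, so nothing is read from this count. Ier3, a stress and survival factor, rose from 10.5 and 11.4 TPM in controls to 23.1 and 22.4 TPM after BMP6 (0.99, SE 0.12, adjusted p = 0.0721 by limma). Its adjusted p by limma was 0.143 without trend and 0.507 without a filter on low values, and 0.178 by voom without a block. The groups of Ier3 lay far apart, but leaving out any of the 4 libraries raised its adjusted p to between 0.101 and 0.299. With the replicate block, Vegfa, the vascular growth factor, also rose (0.66, SE 0.10 with the block, adjusted p = 0.0228), and Myc, the growth-promoting transcription factor, fell (-0.45, SE 0.08 with the block, adjusted p = 0.0303). Neither passed without the block, and their adjusted p was between 0.0126 and 1.0 and between 0.0184 and 1.0 under the alternatives. Vegfa was at 11.3 and 5.81 TPM after BMP6 and at 6.46 and 3.51 TPM in controls, so that the groups overlapped. Its difference was 0.72 in replicate 1 and 0.60 in replicate 2. Leaving out 1 library breaks a pair and mixes the difference between replicates into that of BMP6. The difference of Vegfa was then 0.23 without BMP6 replicate 1 and 0.29 without control replicate 2. It was 1.08 without BMP6 replicate 2 and 1.02 without control replicate 1. Myc was at 45.6 and 41.9 TPM after BMP6 and at 59.1 and 60.7 TPM in controls. The 9-base element was found in Vegfa and Fos and in none of Ier3, Myc, Myod1, Il1b and Ccl2. Myod1 had a difference of 0.13 (SE 0.09), 0.24 in replicate 1 and 0.02 in replicate 2, and did not pass in either fit.

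Across the table, 946 tested entries held TTATTTATT after the stop codon. Of these, 584 had a difference above 0 and 362 below (61.7% above), with a median of 0.03, beside 57.1% above and a median of 0.02 over all 10725 entries with an annotated region. The shorter words gave similar values. Of 3401 entries with TATTTAT, 64.5% lay above 0 (median 0.04), and of 7806 with ATTTA, 61.2% did (median 0.03). At an adjusted p under 0.1, 6 of the 946 were higher and none lower (0.634%, beside 0.27% of the 10725), and with the replicate block 22 were higher and 2 lower (2.54%, beside 1.59% of the 10725). Entries with the element had longer regions, with a median of 2652 bases against 1237 in entries without it, and the part of length in these values was not tested.

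The p38 and MK2 kinases phosphorylate tristetraprolin. Of 7 genes of this pathway, 6 were above 0 and 1 below (median 0.15). Dusp1, a phosphatase that switches p38 off and whose own mRNA holds the 9-base element, rose from 90.6 and 104 TPM in controls to 182 and 180.5 TPM after BMP6 (0.90, SE 0.10, adjusted p = 0.059 by limma). Its adjusted p by limma was 0.188 without trend and 0.607 without a filter on low values. Without control replicate 1 its adjusted p was 0.161. Mapk11, a p38 isoform, was the lowest at -0.34 (SE 0.17, not past the threshold).

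Zfp36 and Btg2 are known as early response genes. Of 15 other immediate early genes, 12 were tested, 9 above 0 and 3 below (median 0.16). At an adjusted p under 0.1 by limma 4 rose, Arc, Junb, Ier3 and Dusp1, beside 0.244% of all tested entries past it in either direction. Ier3 and Dusp1 also stand in lists described above. This list too was chosen with earlier results of these data known, and nothing is read from its count. Junb, an AP-1 subunit, went from 108 and 120 TPM to 301 and 297 TPM (1.39, SE 0.09, adjusted p = 0.0132) and passed without each library in turn. Arc, an early gene known from synapses, went from 1.40 and 2.03 TPM to 5.87 and 7.63 TPM (1.51, SE 0.19, adjusted p = 0.0963), which exceeded 0.1 without BMP6 replicate 2 (0.127) and without control replicate 1 (0.19), and with either other pseudocount, without a filter, without trend and with voom without a block. Only 6 of 13 alternatives kept the call of Arc. Egr1, a zinc finger factor, had the lowest value at -0.18 (SE 0.12). Of 9 p53 target genes other than Btg2, 7 were above 0 and 2 below (median 0.07). None passed in either fit. At an unadjusted p under 0.05 there were 0 without the block and 2 with it, Cdkn1a and Mdm2, beside 3.2% and 12.9% of all tested entries. The 9 genes ranged from the stress sensor Sesn2 at -0.10 (SE 0.43) to the p53 ubiquitin ligase Mdm2 at 0.19 (SE 0.19).

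**Figure D5:**
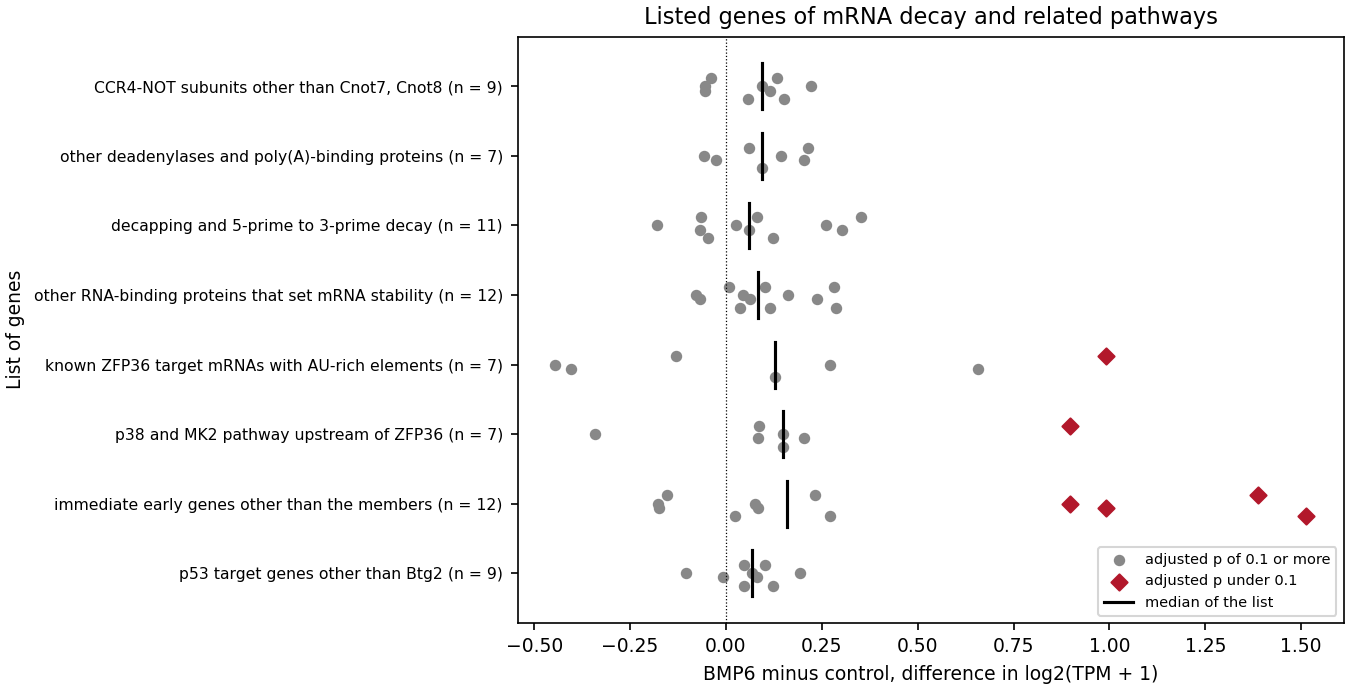
Difference between BMP6 and control in log2(TPM + 1) for each tested gene of 8 lists, with 1 point per gene, red diamonds for genes past an adjusted p of 0.1 by limma and a black bar at the median of each list. The medians lie between 0.06 and 0.16, and the red diamonds are Ier3, Dusp1, Junb and Arc, with Ier3 and Dusp1 shown in 2 lists each.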

How the data were processed

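Per the labels, polyA RNA of 4 samples was made into unstranded Smart-seq2 libraries, which carry no molecular identifiers. The authors aligned reads to GRCm39 with GENCODE M32 using STAR 2.7.11a and merged and quantified transcripts with StringTie 2.2.1, run per the file headers without correction for reads aligned to several places. The authors deposited TPM and FPKM per gene, and unscaled coverage signal per transcript and exon. The joined and per-library TPM were equal in all 221068 comparisons. Read numbers were rebuilt as coverage times length over 100-base reads; they are not independent molecules.

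The test was limma 3.58.1 (R 4.3.3), with trend, on log2(TPM + 1), two-sided, adjusted by Benjamini-Hochberg over 13128 entries whose TPM averaged 1 or more. A call over the whole table also needed a 2-fold difference in either direction and a name outside the classes the study set aside. Differences on this scale understate changes of low genes. Both fits were tested on simulated data and recovered nearly all changed entries. That recovery holds only for the sizes of change put into those data and says nothing of smaller ones. A gene with a smaller difference that did not pass is therefore not shown to be unchanged. On the simulated data, whose noise and replicate effect were assumed, the fit with the replicate block called more unchanged entries than its threshold allows. Whether it does so in the real libraries was not tested, which bears on genes that passed only with the block. Alternatives were other pseudocounts, filters, FPKM, quantile normalization, voom, no trend, a replicate block and leaving out each library. The labels name the replicates as batches, and same-numbered libraries deviated together (correlation across genes 0.563), so the numbers pair the libraries.

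The 10 genes and the lists were chosen with earlier results of these data known. Named were all 10 genes, listed genes past the adjusted p without or with the block, the highest and lowest of each list, and the 3 nearest profiles to Zfp36 and Btg2. Untranslated regions came from GENCODE M39, promoters from RefSeq, and copies from BLAST+ 2.17.0 (at least 95% identity over 100 bases). Promoter motifs were searched on both strands except TATAAA.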

Additional observations from a re-analysis of the deposited data

How the results depend on the processing

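With 2 libraries per group, calls depend on the settings. Of the entries with a kept name, 24 were called by limma, which also asks for a 2-fold difference. The number was 15 with a pseudocount of 5, 15 at a mean TPM of at least 5, 12 without trend and 11 at an adjusted p under 0.05. It was 0 without a filter on low values, where 1212 of all entries had an unadjusted p under 0.05. By the adjusted p alone, 32 of all tested entries passed in the main fit and 30 with a pseudocount of 5. The replicate block gave 37 and voom with the replicate block 62. Listed genes were counted by the adjusted p alone. Of them 8 passed, but 4 without trend, 3 at 0.05 and 0 without a filter. Leaving out 1 library gave between 18 and 34 called entries and between 5 and 8 listed genes, the fewest without control replicate 1. With the pairing as a replicate block 12 listed genes passed, and the members stayed at 0 under all alternatives run. The replicate difference was past the adjusted p in 2595 entries and 1 of the 10 genes, but in 607 and 0 with the replicate term alone and in 1293 and 0 without trend. Leaving out a library was not run for it, since no residual degree of freedom is left. Among the 10 genes the sign of the BMP6 difference changed only for Zfp36l1 (without BMP6 replicate 1 or control replicate 2), Btg1 (without BMP6 replicate 2) and Cnot8 (without BMP6 replicate 1). Transcript shares were the same from coverage as from TPM. Where a cause is not given by the setting itself, the cause was not tested.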
